A study of Homo sapiens with 12 samples.

Results

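The genes described here are 39 genes of autophagy and the lysosome among the 58735 genes of an RNA-seq table of HepaRG cells. They were taken by symbol from a list that covers the induction complexes (9 genes), the machinery that expands and lipidates the autophagosome membrane (13), cargo receptors (4), lysosomal proteins (10) and TFEB family factors with a regulator (3). All 39 symbols had a row, and all 39 passed the filter for testing, which asked for at least 1 FPKM (fragments scaled to transcript length and library size) in at least 3 of 12 libraries. In 37 of them the level was at or above 1 FPKM in every library, the exceptions being PIK3C3 (6 libraries) and ULK2 (11).

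HepaRG is a human hepatic cell line, and the labels give it as wild type. Each of 4 groups had 3 libraries. Control cells had no treatment, PA cells had palmitate, a fatty acid with no double bond, in deuterium-labelled form at 400 µM for 4 h, and PA+OA cells had 200 µM of monounsaturated oleate beside that palmitate, so that the total fatty acid dose was 600 µM against 400 µM. PA+BMS cells had palmitate for 4 h within a 24 h exposure to 50 µM BMS-309403, which blocks FABP4, a carrier of fatty acids in the cytoplasm. No group had oleate or BMS-309403 without palmitate, and no source used here gives the vehicles, so a change in PA+OA or PA+BMS belongs to the combination. Replicates are not called separate cultures in the labels, and p-values measure a spread that may be technical.

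Autophagy encloses cytoplasm in a double membrane and delivers it to the lysosome for breakdown. The ULK1 kinase complex and the PI3-kinase complex of PIK3C3 and BECN1 start the membrane, ATG9A, ATG2A and the WIPI proteins expand it, and a pair of conjugation systems attach LC3 and GABARAP proteins to its lipids, where cargo receptors such as SQSTM1 dock. TFEB and TFE3 are transcription factors held in the cytoplasm by mTORC1 in fed cells; in the nucleus they bind E-box sequences of the CLEAR type before many lysosomal and autophagy genes. In liver cells this route also breaks down lipid droplets, and acid lipase (LIPA) frees fatty acids in the lysosome.

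Promoter windows from RefSeq (GRCh38.p14; 250 bases before to 50 after a gene's start) matched 33 of the 39 members. The palindromic E-box of the CLEAR type, TCACGTGA, which reads the same on both strands and contains the shorter E-box CACGTG, lay in windows of 4 of the 33, namely ATG3, ATP6V0D1, LAMP1 and MCOLN1. Counted by window, it was in 9.09% of the 44 member windows and 0.98% of all 35116 windows of that length. CACGTG alone was in 13.6% of member windows against 7.26% of all, the antioxidant element TGACNNNGC in 15.9% against 13.3%, and the amino acid response element TGATGNAA in 0% against 3.62%, both strands searched. A match is a description of the letters, not of a bound site. The 4 windows with the palindrome are all shown, whatever the direction of change. LAMP1, MCOLN1 and ATP6V0D1 were called higher with palmitate and lower with BMS-309403 added. ATG3 was not called with palmitate (-0.29 on the log2 scale) and rose with BMS-309403 added. With the trend over GC content and gene length removed, none of these 4 passed with palmitate, and only LAMP1 did with BMS-309403 added. The 3 palmitate calls also hang on single libraries, as given below. Whether the motif bears on these changes was not tested. Capitals mark each E-box, with its flanking bases where the palindrome is complete, and the sequences run 5′ to 3′ on the gene's own strand, from chr13:113296989-113297288 (plus strand, LAMP1), chr19:7522374-7522673 (plus, MCOLN1), chr16:67481108-67481407 (minus, ATP6V0D1) and chr3:112561913-112562212 (minus, ATG3).
LAMP1: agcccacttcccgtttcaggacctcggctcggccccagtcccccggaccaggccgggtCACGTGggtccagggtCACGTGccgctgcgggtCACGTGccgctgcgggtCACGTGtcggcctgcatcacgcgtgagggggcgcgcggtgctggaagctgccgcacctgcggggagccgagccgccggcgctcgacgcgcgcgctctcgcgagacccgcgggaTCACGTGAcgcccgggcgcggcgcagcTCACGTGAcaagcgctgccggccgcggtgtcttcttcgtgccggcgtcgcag
MCOLN1: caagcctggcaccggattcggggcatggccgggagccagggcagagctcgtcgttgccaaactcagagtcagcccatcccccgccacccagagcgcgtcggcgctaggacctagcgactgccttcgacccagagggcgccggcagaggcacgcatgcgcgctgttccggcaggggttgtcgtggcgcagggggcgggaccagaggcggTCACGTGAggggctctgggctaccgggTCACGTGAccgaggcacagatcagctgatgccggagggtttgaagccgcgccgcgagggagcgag
ATP6V0D1: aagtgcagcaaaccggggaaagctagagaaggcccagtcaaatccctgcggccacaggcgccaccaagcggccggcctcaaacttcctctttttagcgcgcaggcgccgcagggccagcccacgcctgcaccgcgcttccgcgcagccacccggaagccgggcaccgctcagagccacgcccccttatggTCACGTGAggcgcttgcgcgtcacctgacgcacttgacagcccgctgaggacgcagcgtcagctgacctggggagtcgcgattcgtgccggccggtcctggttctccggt
ATG3: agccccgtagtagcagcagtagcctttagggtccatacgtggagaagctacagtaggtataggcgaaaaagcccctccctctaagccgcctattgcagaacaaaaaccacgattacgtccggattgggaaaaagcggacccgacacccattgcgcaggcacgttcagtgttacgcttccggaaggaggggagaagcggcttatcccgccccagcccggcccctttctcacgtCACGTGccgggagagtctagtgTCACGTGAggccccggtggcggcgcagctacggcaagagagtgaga
The LAMP1 window held 6 E-boxes, 2 of them palindromic, MCOLN1 held 2 that were both palindromic, ATG3 held 2 with 1 palindromic, and ATP6V0D1 held 1. The antioxidant element was in windows of 7 of the 33 members, among them LAMP1 (1) and ATP6V0D1 (2), where it is not marked above. MAP1LC3B, the member that changed most when oleate was added to palmitate, had no E-box in its window (chr16:87392086-87392385, plus strand) and 1 antioxidant element, in capitals here.
MAP1LC3B: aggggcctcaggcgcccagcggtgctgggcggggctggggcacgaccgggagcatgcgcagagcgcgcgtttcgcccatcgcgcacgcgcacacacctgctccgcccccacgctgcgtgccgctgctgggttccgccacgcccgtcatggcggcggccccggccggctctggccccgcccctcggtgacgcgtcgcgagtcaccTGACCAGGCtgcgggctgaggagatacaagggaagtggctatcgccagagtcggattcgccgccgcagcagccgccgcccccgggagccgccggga

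The libraries held 16059128 to 19971190 recovered reads, and the fewest reads behind any member in any library were 93, for GABARAP. The first principal component of all tested genes took 54.4% of the variance, and PA+OA replicate 1 (54.6) and PA+BMS replicate 3 (-51.5) lay at its ends, far from the other libraries of their groups (10.6 and 18.1 for PA+OA, -19.4 and -16.8 for PA+BMS). Among the members, PA+BMS replicate 3 was the highest or the lowest of its group in 39 of 39 genes, PA+OA replicate 1 in 31 and control replicate 1 in 32, and the other 9 libraries in 17 to 28. Calls that change without the 2 libraries at the ends of that component, and called values that then move by over 1.5 times, are given for each comparison. Hepatocyte markers were near absent, with all 8 listed genes (ALB and HNF4A among them) under 1 FPKM in every library. Of 5 bile duct markers only KRT7 reached 1 FPKM, and the list summed to 477 to 564 FPKM in control, 571 to 669 in PA, 520 to 917 in PA+OA and 140 to 185 in PA+BMS. Other markers also moved with the groups. The 4 endothelial ones summed to 1.36 to 1.82 FPKM in control, 1.06 to 1.35 in PA, 0.287 to 0.454 in PA+OA and 0.343 to 0.459 in PA+BMS. The 4 macrophage ones summed to 1.51 to 2.20, 1.63 to 2.10, 1.77 to 1.91 and 0.539 to 0.607 FPKM in the same order, and the 5 of stellate cells and fibroblasts to 19.5 to 21.4, 20.7 to 21.2, 16.9 to 21.2 and 14.8 to 16.4. Only CDH5 of the endothelial list and CSF1R of the macrophage list reached 1 FPKM in any library. Those sums and the bile duct sum thus rest largely on 1 gene each and are no measure of cell numbers. The share of these markers in the members' changes was not tested, and in bulk RNA fewer cells of a type and less RNA per cell cannot be told apart.

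Per length, the cargo receptor SQSTM1 (p62) was the most abundant member in every library, at 187 to 588 FPKM (ENSG00000161011, GRCh38 chromosome 5, 179806398 to 179838078). The proteases CTSD and CTSL and the membrane protein LAMP1 followed, at 55.4 to 220, 65.4 to 124 and 57.7 to 103 FPKM, and their ranges overlapped. TFE3 (34.0 to 66.6 FPKM) stood above TFEB (1.16 to 2.62) in every library. At the low end were PIK3C3, the lipid kinase (0.50 to 1.81), and the kinase ULK2 (0.851 to 2.50), far below its paralog ULK1 (21.6 to 44.8). The plot of levels shows every member in every library.

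**Figure D1:**
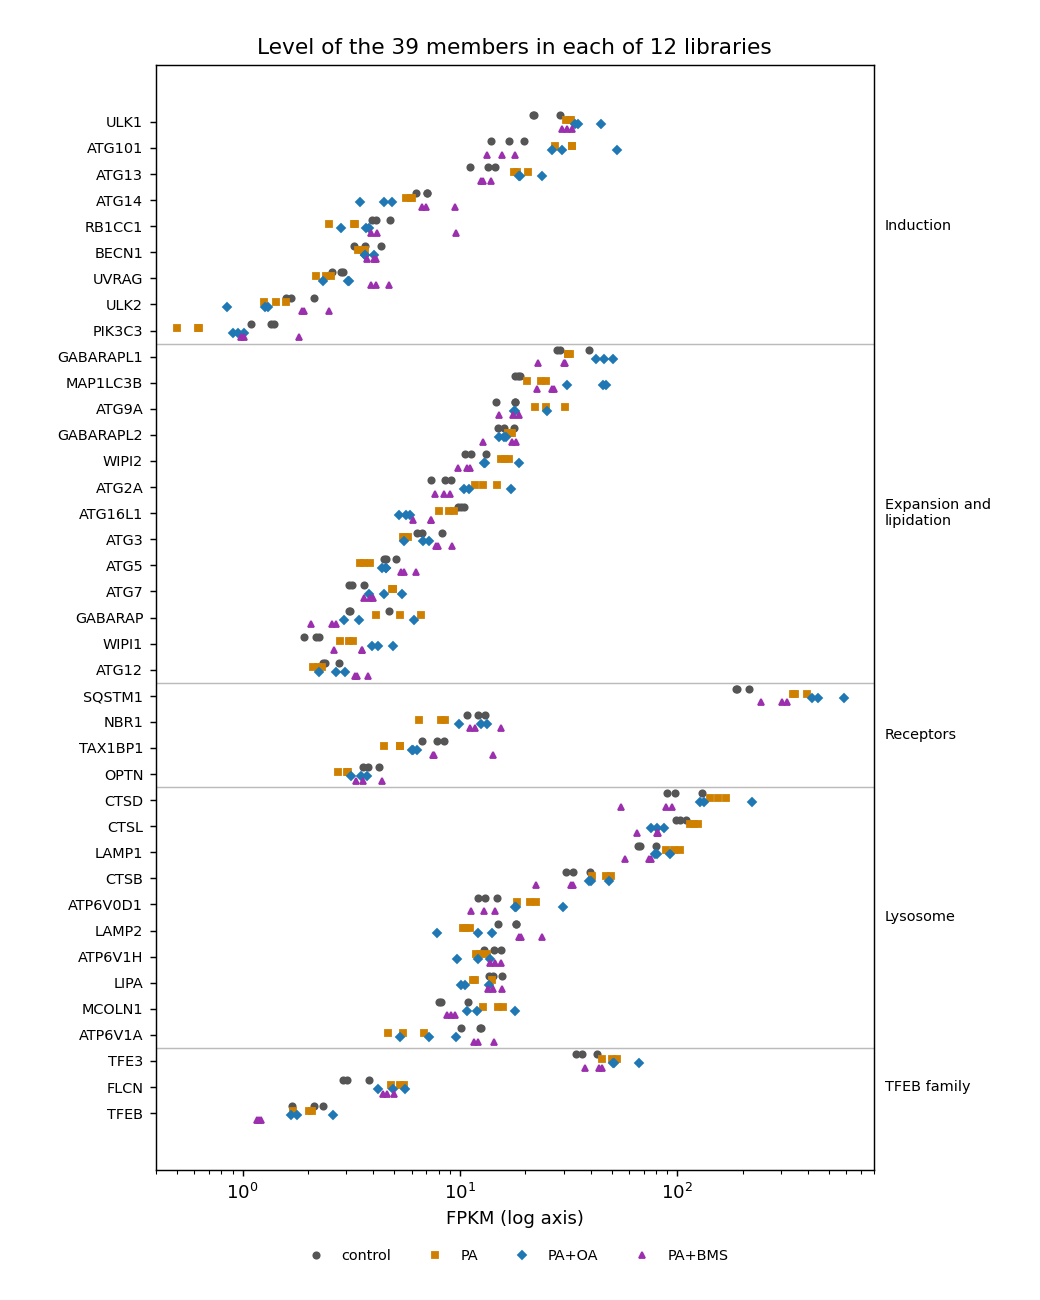
Level of each of the 39 members in FPKM (log axis), one point per library, coloured by group and sorted by mean within each role. SQSTM1 lies at 187 to 588 FPKM, above every other member of the same library, and PIK3C3 falls to 0.50 FPKM.

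Palmitate for 4 h raised SQSTM1, ATG101, ATG13, ATG2A, ATG9A, ATG7, WIPI1, WIPI2, MCOLN1, LAMP1, ATP6V0D1 and FLCN, and lowered NBR1, PIK3C3, ATG5, LAMP2 and ATP6V1A. In PA against control, 12 of 39 members were higher and 5 lower (limma on log2(FPKM + 1), Benjamini-Hochberg over 11856 genes at 0.05), 30.8% and 12.8% of the members, where 12.8% and 14.8% of all tested genes were called higher and lower. The higher calls ranged from 1.36 to 1.85-fold in group means and the lower ones from 0.460 to 0.779-fold. The median log2 change of the 39 was 0.064, against 0.028 over all tested genes. Scaling all libraries to the same total gave a median over all genes of -0.18 and a split of 6 higher and 10 lower. Most of these calls hang on single libraries. Without control replicate 2 or without PA replicate 2, 2 higher and 1 lower call were left, without control replicate 3 there were 4 and 1, and without PA replicate 1 there were 3 and 2. SQSTM1, ATP6V1A and FLCN were called in all 12 fits that left out 1 library. With both libraries that stand apart removed, the counts were 19 and 9, and CTSB, CTSD, CTSL, GABARAP, MAP1LC3B, TFE3 and ULK1 joined the higher calls and ATG3, OPTN, RB1CC1 and TAX1BP1 the lower ones.

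SQSTM1 stood at 213, 187 and 188 FPKM in control and at 342, 397 and 349 FPKM in PA, an increase of 0.88 ± 0.16 (SE) on the log2 scale with an adjusted p of 0.0050. Every PA library lay above every control library. SQSTM1 binds ubiquitin on its cargo and LC3 on the membrane, and is itself degraded by autophagy. NBR1, a receptor with the same pair of binding functions, went the other way, from 10.7, 12.1 and 13.0 FPKM to 8.53, 6.50 and 8.23 FPKM (log2 change -0.57 ± 0.15, adjusted p = 0.021). The groups did not overlap, but the call was lost without control replicate 2 or 3 or PA replicate 2. TAX1BP1 (7.66 to 5.04 FPKM in the means) and OPTN (3.88 to 2.95) were lower in every PA library than in any control library without passing the test (adjusted p = 0.057 for each).

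Of the 9 induction members, 2 rose and 1 fell. ATG101, a small partner of the ULK1 kinase, went from 19.7, 13.9 and 16.8 FPKM to 32.9, 32.7 and 27.3 FPKM (0.86 ± 0.22, adjusted p = 0.019), and the adaptor ATG13 from 14.5, 11.2 and 13.5 FPKM to 20.6, 18.2 and 17.8 FPKM (0.51 ± 0.13, adjusted p = 0.016). ULK1 itself lay at 28.8, 21.6 and 21.9 FPKM in control and 32.3, 30.8 and 31.9 FPKM in PA, a difference of 0.39 that narrowly missed the threshold (adjusted p = 0.0503). PIK3C3, the PI3-kinase that makes the lipid the WIPI proteins bind, fell from 1.09, 1.35 and 1.39 FPKM to 0.626, 0.50 and 0.632 FPKM (-0.52 ± 0.14, adjusted p = 0.022). In ATG101 and PIK3C3 the calls were lost without control replicate 2 or 3, PA replicate 1 or PA replicate 2, and in ATG13 without control replicate 2, PA replicate 1 or PA replicate 2. PIK3C3 was not called with the GC and length trend removed (adjusted p = 0.87), while ATG101 and ATG13 were. BECN1 (3.76 FPKM in control, 3.53 in PA), its regulatory subunit, was almost level (-0.07 ± 0.10, adjusted p = 0.63).

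Of the 13 expansion and lipidation members, 5 rose and 1 fell. ATG2A, which moves lipid into the growing membrane, went from 9.09, 7.34 and 8.53 FPKM to 14.7, 12.7 and 11.8 FPKM (0.60 ± 0.16, adjusted p = 0.023). ATG9A, the lipid scramblase it works with, went from 18.0, 14.7 and 17.8 FPKM to 30.3, 24.9 and 22.2 FPKM (0.58 ± 0.16, adjusted p = 0.022). In both of these the PA libraries lay wholly above the controls, but with the GC and length trend removed neither was called (adjusted p = 0.055 and 0.17). ATG7, the E1-like enzyme of both conjugation systems, went from 3.20, 3.08 and 3.62 FPKM to 4.94, 4.90 and 4.86 FPKM (0.46 ± 0.11, adjusted p = 0.015). WIPI2 and WIPI1, which read the PI3-kinase product, rose by 0.44 ± 0.14 (adjusted p = 0.037) and 0.37 ± 0.12 (adjusted p = 0.037), from group means of 11.7 to 16.1 and 2.12 to 3.04 FPKM. ATG5, a partner in the ATG12–ATG5 conjugate, fell from 4.48, 5.07 and 4.56 FPKM to 3.87, 3.49 and 3.64 FPKM (-0.29 ± 0.09, adjusted p = 0.038), and was lost as a call in 8 of the 12 fits without 1 library, including each of control replicates 2 and 3 and the 3 PA replicates. Leaving out control replicate 2 or PA replicate 2 ended the other 5 calls too, and all but ATG7 were lost without control replicate 3 or PA replicate 1, as were WIPI1 and WIPI2 without PA replicate 3. WIPI1, WIPI2 and ATG5 were not called with the GC and length trend removed, and ATG7 was (0.42, adjusted p = 0.041). MAP1LC3B (LC3B) was 18.6, 17.9 and 18.9 FPKM in control and 20.3, 23.6 and 24.9 FPKM in PA, not past the test (0.30 ± 0.15, adjusted p = 0.14). GABARAPL1 had means of 32.0 and 31.6 FPKM, a log2 change of 0.00.

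Of the 10 lysosomal members, 3 rose and 2 fell. MCOLN1, the lysosomal calcium channel, went from 10.9, 8.0 and 8.18 FPKM to 15.9, 14.9 and 12.7 FPKM (0.63 ± 0.17, adjusted p = 0.022). LAMP1 rose from 79.5, 67.5 and 65.8 FPKM to 89.0, 103 and 96.5 FPKM (0.44 ± 0.14, adjusted p = 0.034), and LAMP2, its partner in the lysosomal membrane, fell from 15.1, 18.2 and 18.1 FPKM to 10.6, 10.4 and 11.1 FPKM (-0.63 ± 0.17, adjusted p = 0.024). Among the members, subunits of the proton pump were split in the same way. ATP6V0D1, of its membrane sector, rose from 14.8, 12.1 and 13.0 FPKM to 21.1, 22.4 and 18.3 FPKM (0.59 ± 0.18, adjusted p = 0.031), while ATP6V1A, the catalytic subunit of the cytosolic sector, fell from 10.1, 12.5 and 12.4 FPKM to 5.47, 4.66 and 6.85 FPKM (-0.94 ± 0.18, adjusted p = 0.0063). In each of these the groups did not overlap. Removing control replicate 2 or 3, PA replicate 1 or PA replicate 2 ended the calls of MCOLN1, LAMP1, LAMP2 and ATP6V0D1, and LAMP1 was lost without PA replicate 3 as well. GC content was higher in LAMP1 (51.2%) and ATP6V0D1 (58.1%) than in LAMP2 (37.7%) and ATP6V1A (40.6%). With the GC and length trend removed, MCOLN1, LAMP1, LAMP2 and ATP6V0D1 were not called (adjusted p = 0.11, 0.074, 0.15 and 0.11). ATP6V1A was called there (-0.57, adjusted p = 0.010). The proteases CTSD (106 to 155 FPKM in the means, adjusted p = 0.096), CTSB (34.6 to 45.7, adjusted p = 0.086) and CTSL (104 to 119, adjusted p = 0.20) did not pass. Each PA library exceeded each control library in them, but the gap was narrow in CTSB (lowest PA 40.5, highest control 39.9 FPKM). How often all tested genes separate in this way was not counted.

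Among the TFEB family and its regulator only FLCN rose. FLCN, folliculin, acts on the Rag GTPases through which mTORC1 holds TFEB and TFE3. Its level was 3.83, 3.01 and 2.89 FPKM in control and 5.53, 5.29 and 4.82 FPKM in PA, without overlap (0.55 ± 0.12, adjusted p = 0.0090). TFE3 had means of 37.6 and 49.3 FPKM (0.38 ± 0.14, adjusted p = 0.057) and TFEB 2.05 and 1.93 FPKM (-0.05 ± 0.13, adjusted p = 0.76). With the GC and length trend removed, TFEB was called lower (-0.34, adjusted p = 0.023). The tests read mRNA and not where these proteins were.

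**Figure D2:**
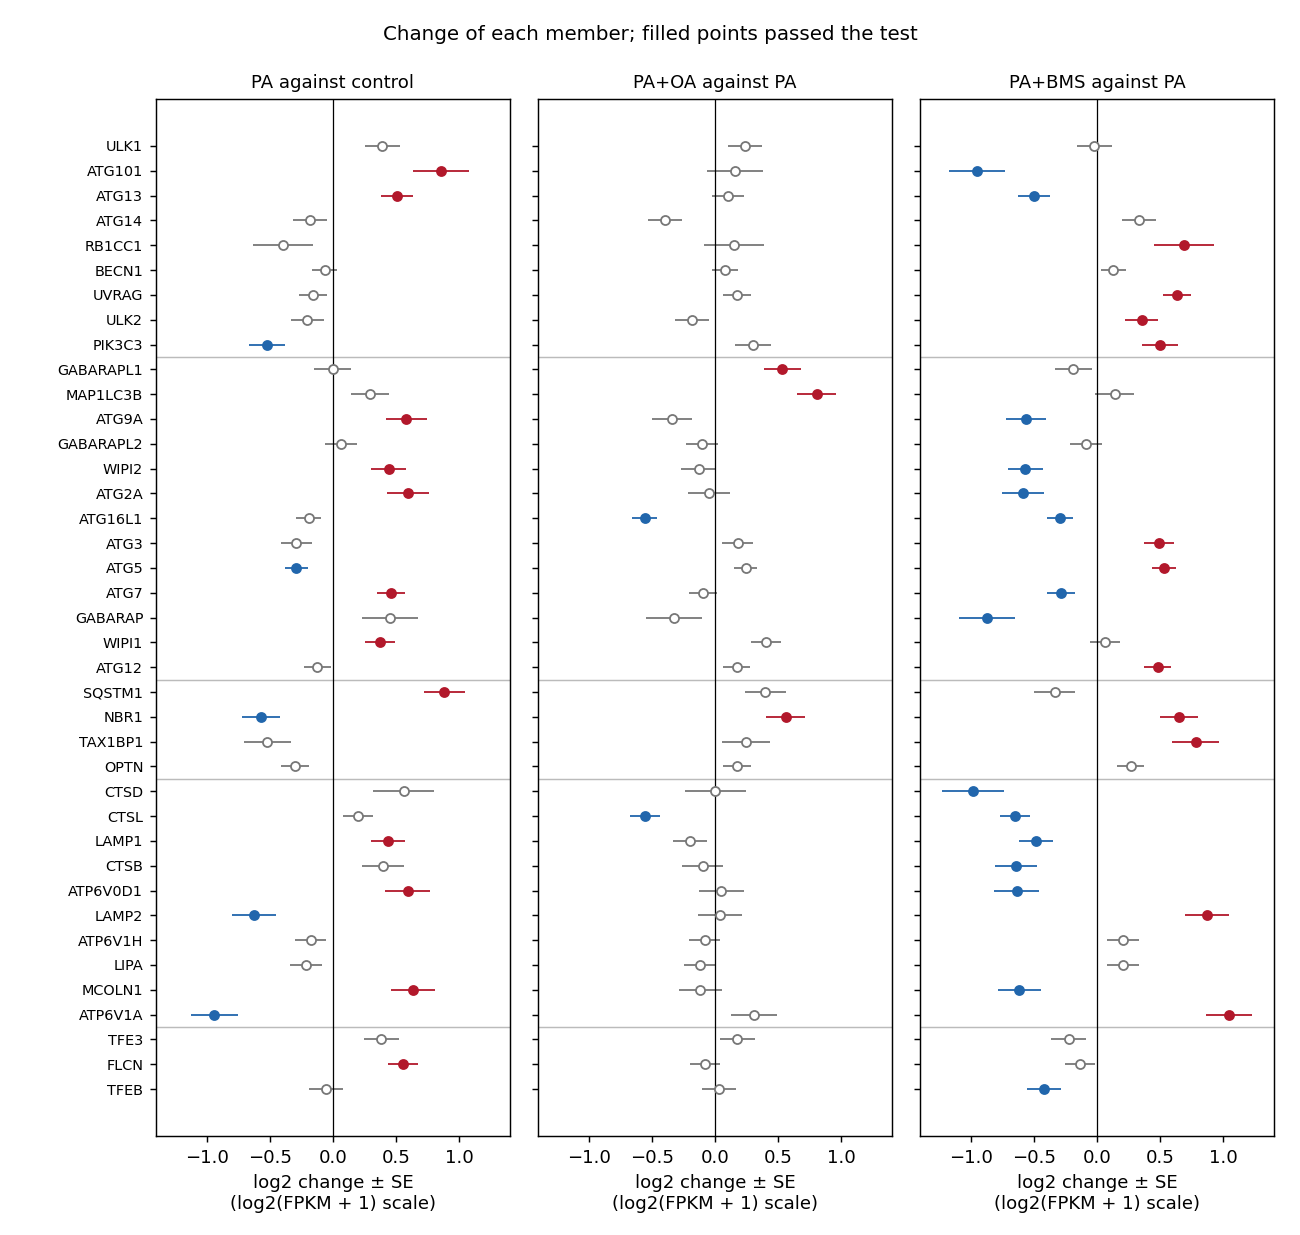
Log2 change ± SE of each member on the log2(FPKM + 1) scale, from left to right PA minus control, PA+OA minus PA and PA+BMS minus PA, by role, with members past the test filled (red higher, blue lower). Filled points number 17, 5 and 26, and in the right panel ATP6V1A lies at 1.05 and CTSD at -0.98.

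Adding oleate to palmitate raised MAP1LC3B, GABARAPL1 and the receptor NBR1 and lowered ATG16L1 and the protease CTSL. In PA+OA against PA, 3 of 39 were higher and 2 lower, 7.69% and 5.13%, beside 4.01% and 3.91% of all tested genes. MAP1LC3B and ATG16L1 were called in all 12 fits that left out 1 library. NBR1 and GABARAPL1 were lost in most such fits, down to 1 higher call without any of 9 of the 12 libraries, among them control replicates 2 and 3 and all 3 PA replicates. CTSL was lost without PA replicate 1 or 2 or PA+OA replicate 2 or 3, which left 1 lower call. With only the 6 PA and PA+OA libraries in the fit, ATG16L1 alone passed. Without both libraries that stand apart, 6 were higher and 6 lower, the added ones being ATP6V1A (0.50), UVRAG (0.27) and WIPI1 (0.42) above PA and ATG14 (-0.28), ATG9A (-0.50), GABARAP (-0.58) and WIPI2 (-0.30) below it.

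MAP1LC3B (ENSG00000140941, chromosome 16, 87383995 to 87404779) is the LC3 protein that, once attached to lipid, marks the autophagosome. It lay at 20.3, 23.6 and 24.9 FPKM in PA and at 31.2, 45.4 and 47.2 FPKM in PA+OA (log2 change 0.80 ± 0.15, adjusted p = 0.0067). The groups did not overlap, and PA+OA replicate 1 was the lowest of its group: without it and PA+BMS replicate 3 the change was 0.99. GABARAPL1, of the sister subfamily, went from 32.0, 31.6 and 31.3 FPKM to 45.9, 50.5 and 42.4 FPKM (0.53 ± 0.15, adjusted p = 0.047). GABARAPL2 (17.0 and 15.8 FPKM in the means, -0.10 ± 0.13, adjusted p = 0.75) and GABARAP (5.36 and 4.18, -0.33 ± 0.22, adjusted p = 0.47) were not called. MAP1LC3B2, a near-identical copy of MAP1LC3B, was listed at 2.97 ± 0.23 and 5.13 ± 1.11 FPKM (SD, n = 3; 0.61, adjusted p = 0.022), and how reads were divided between the 2 copies is uncertain.

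ATG16L1 (ENSG00000085978, chromosome 2, 233210051 to 233295674) brings the ATG12–ATG5 conjugate to the membrane and so sets where LC3 is attached. It fell from 8.01, 8.87 and 9.36 FPKM in PA to 5.66, 5.92 and 5.26 FPKM in PA+OA (-0.56 ± 0.10, adjusted p = 0.0054), with no overlap. The protease CTSL (chromosome 9, 87725519 to 87731393) fell from 119, 124 and 114 FPKM to 87.1, 80.5 and 75.6 FPKM (-0.55 ± 0.12, adjusted p = 0.014), while CTSD (155 and 160 FPKM, 0.00 ± 0.24) and CTSB (45.7 and 42.7, -0.10 ± 0.16) showed no such step. NBR1, low in PA, lay at 9.90, 13.3 and 12.6 FPKM with oleate (0.56 ± 0.15, adjusted p = 0.042), clear of the PA libraries and overlapping the controls. SQSTM1 had 588, 443 and 417 FPKM against 342, 397 and 349 FPKM, each above each, but the difference of 0.40 ± 0.16 did not pass (adjusted p = 0.17). SQSTM1 was called higher with library totals set equal and with quantile normalization. It was also called higher with the GC and length trend removed (0.54, adjusted p = 0.012). The 9 induction members gave 0 calls in limma, where 0 were higher and 1 lower at an unadjusted p under 0.05, and voom on recovered reads also called 0. Without both libraries that stand apart, ATG14 (adjusted p = 0.030) and UVRAG (adjusted p = 0.042) were called, with precision weights ATG14, UVRAG and PIK3C3, and ATG14 also without PA+BMS replicate 3 alone (adjusted p = 0.043). The 3 TFEB family members gave 0 calls, 0 of them at an unadjusted p under 0.05, and 0 with voom, with precision weights or without both libraries. With the GC and length trend removed, TFE3 (0.25, adjusted p = 0.035) and the induction member ULK1 (0.38, adjusted p = 0.013) were called higher. ATG14 was called lower there (-0.43, adjusted p = 0.012).

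**Figure D3:**
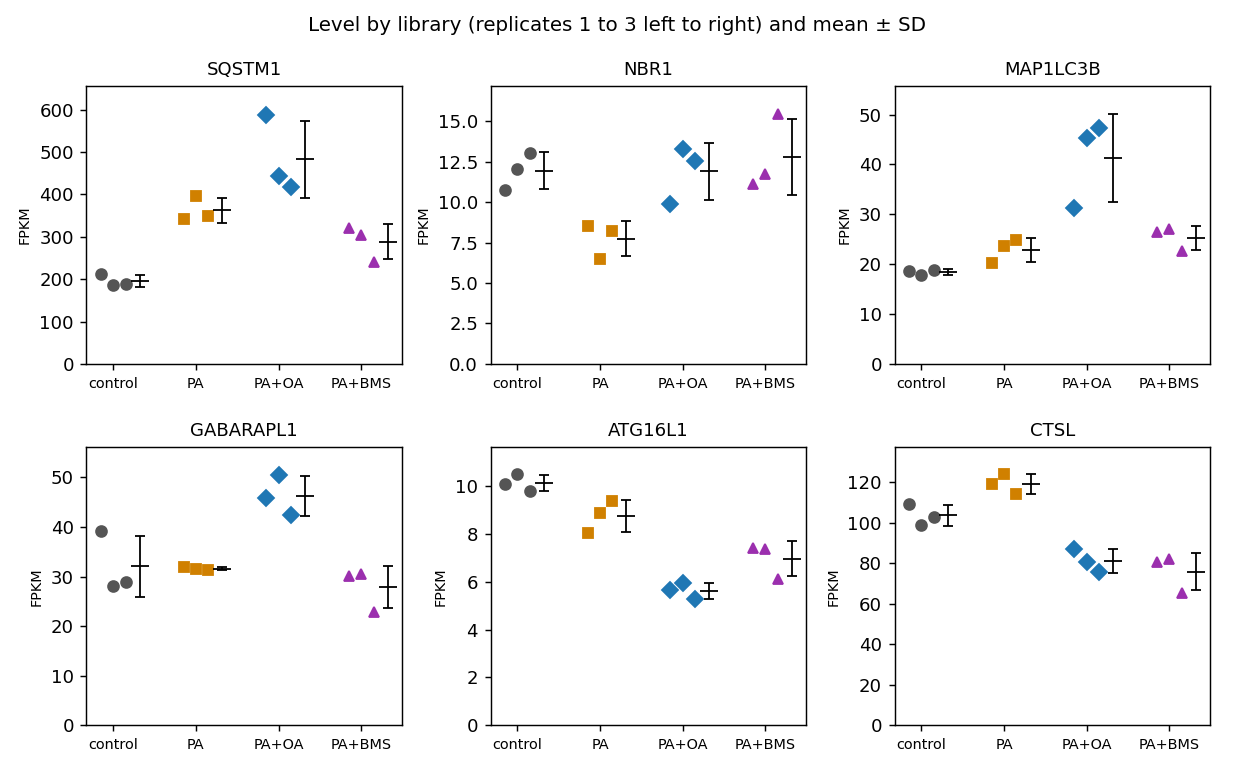
FPKM by library (replicates 1 to 3 from left to right) with the group mean ± SD for SQSTM1, NBR1, MAP1LC3B, GABARAPL1, ATG16L1 and CTSL. MAP1LC3B is highest in PA+OA at 31.2 to 47.2 FPKM, and ATG16L1 is lowest there at 5.26 to 5.92 FPKM.

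With BMS-309403 added to palmitate, cathepsins, part of the membrane machinery and TFEB were lower than with palmitate alone, and 2 receptors, 2 subunits of PI3-kinase complexes and 3 conjugation genes were higher. With the GC and length trend removed, TFEB, PIK3C3 and the 3 conjugation genes were no longer called. For PA+BMS against PA, 11 of 39 members were higher and 15 lower, 28.2% and 38.5%, in a comparison where 25.2% and 29.4% of all tested genes were called. By role, the higher and lower calls were 4 and 2 of 9 in induction, 3 and 6 of 13 in expansion and lipidation, 2 and 0 of 4 among receptors, 2 and 6 of 10 in the lysosomal set and 0 and 1 of 3 in the TFEB family. Role medians on the log2 scale were 0.46 for receptors, 0.33 for induction, -0.19 for expansion, -0.55 for the lysosomal set and -0.22 for the TFEB family, beside -0.04 over all tested genes. With library totals set equal, where the median of all genes was 0.24, the split turned to 17 higher and 3 lower, and CTSD, ATG101 and GABARAP were the lower ones. Of the 26 calls, 17 held in all 12 fits without 1 library, and ATG7, ULK2, RB1CC1, ATG16L1, TFEB, LAMP1, ATP6V0D1, ATG9A and PIK3C3 did not. Without PA replicate 2, 8 higher and 10 lower calls were left, and without PA+BMS replicate 3, 9 and 10.

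CTSD (ENSG00000117984, chromosome 11, 1752752 to 1764573), the main aspartic protease of the lysosome, fell. Its level was 142, 168 and 154 FPKM in PA and 95.0, 88.8 and 55.4 FPKM in PA+BMS (-0.98 ± 0.24, adjusted p = 0.0091). Replicate 3 was lowest, and without it and PA+OA replicate 1 the change was -0.74. CTSL went from 119, 124 and 114 FPKM to 80.4, 81.9 and 65.4 FPKM (-0.65 ± 0.12, adjusted p = 0.0038), and CTSB from 40.5, 49.5 and 47.2 FPKM to 33.0, 32.4 and 22.3 FPKM (-0.64 ± 0.16, adjusted p = 0.010). In these values all 3 cathepsins were called lower, but for CTSL and CTSB that depended on scaling. With library totals set equal or with quantile normalization, neither was called, whereas CTSD was. LIPA, the acid lipase of the same compartment, was not called (12.4 and 14.5 FPKM, 0.21 ± 0.13, adjusted p = 0.18). Under either of those 2 scalings LIPA was called higher.

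The membrane proteins of the lysosome split again. LAMP1 was lower, at 75.6, 73.7 and 57.7 FPKM against 89.0, 103 and 96.5 FPKM (-0.48 ± 0.14, adjusted p = 0.014), as were MCOLN1 (8.75, 9.07 and 9.45 against 15.9, 14.9 and 12.7 FPKM, -0.61 ± 0.17, adjusted p = 0.014) and ATP6V0D1 (14.5, 12.9 and 11.3 against 21.1, 22.4 and 18.3 FPKM, -0.64 ± 0.18, adjusted p = 0.014). LAMP2 was higher, at 19.1, 18.7 and 23.7 FPKM against 10.6, 10.4 and 11.1 FPKM (0.87 ± 0.17, adjusted p = 0.0048). ATP6V1A (ENSG00000114573, chromosome 3, 113747019 to 113812056) rose, from 5.47, 4.66 and 6.85 FPKM to 11.6, 12.1 and 14.4 FPKM (1.05 ± 0.18, adjusted p = 0.0036). In each of these, PA and PA+BMS did not overlap. The third pump subunit, ATP6V1H, had means of 12.5 and 14.5 FPKM and was not called (0.20 ± 0.12, adjusted p = 0.17). ATP6V1H was called higher with library totals set equal and with quantile normalization. LAMP1 and ATP6V0D1 were lost without PA replicate 2 or PA+BMS replicate 3. With library totals set equal LAMP1, MCOLN1 and ATP6V0D1 were not called, and LAMP1 was not called with quantile normalization either. With the GC and length trend removed, MCOLN1 and ATP6V0D1 were not called (adjusted p = 0.48 and 0.095), while LAMP1, LAMP2 and ATP6V1A were.

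**Figure D4:**
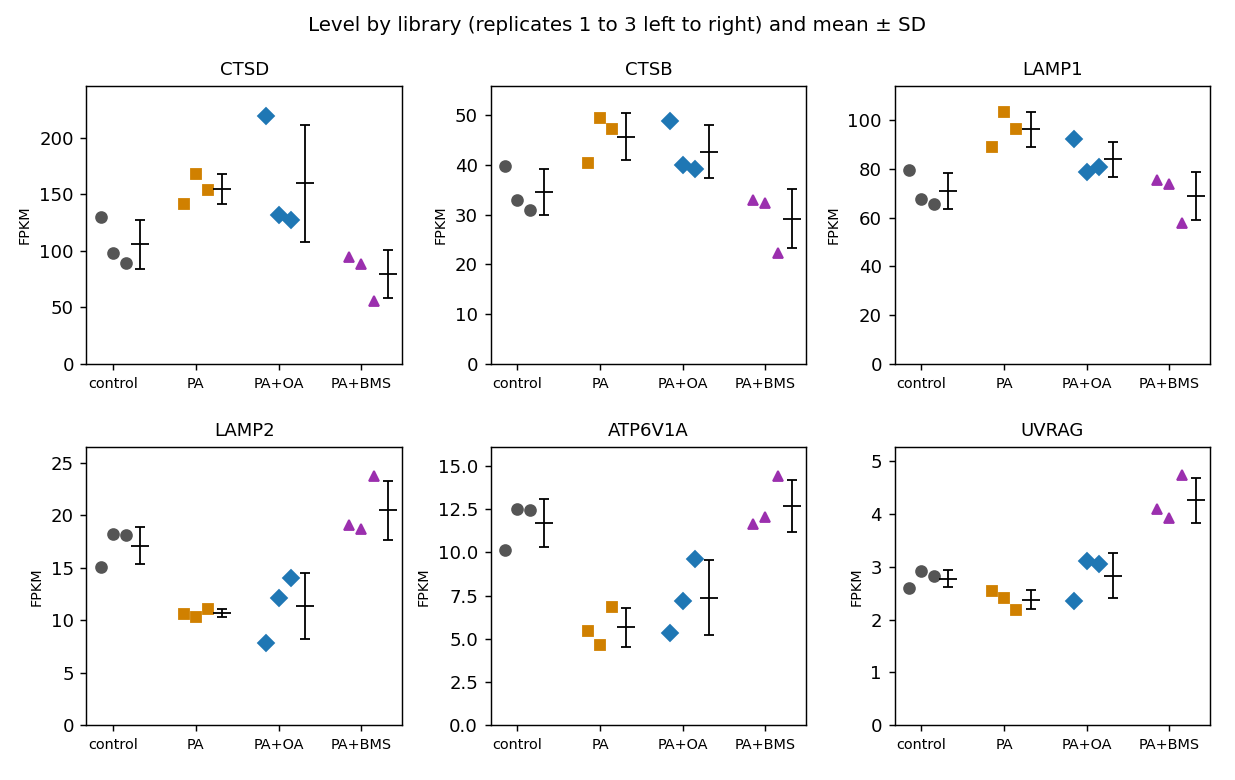
FPKM by library (replicates 1 to 3 from left to right) with the group mean ± SD for CTSD, CTSB, LAMP1, LAMP2, ATP6V1A and UVRAG. CTSD lies at 55.4 to 95.0 FPKM in PA+BMS and 142 to 168 in PA, whereas ATP6V1A lies at 11.6 to 14.4 in PA+BMS and 4.66 to 6.85 in PA.

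In the induction complexes, UVRAG and PIK3C3 of the PI3-kinase side rose, while BECN1 and ATG14 did not pass (0.13 ± 0.10 and 0.33 ± 0.14). UVRAG, a BECN1 partner with roles in later endosomal steps, went from 2.54, 2.41 and 2.18 FPKM to 4.10, 3.92 and 4.74 FPKM (0.63 ± 0.11, adjusted p = 0.0036), above the control libraries too (2.59 to 2.91). PIK3C3 went from 0.626, 0.50 and 0.632 FPKM to 0.987, 1.01 and 1.81 FPKM (0.50 ± 0.14, adjusted p = 0.014). RB1CC1 (FIP200), the scaffold of the ULK1 complex, had 4.16, 3.90 and 9.57 FPKM against 3.27, 2.50 and 3.28 FPKM (0.69 ± 0.24, adjusted p = 0.030). Replicate 3 supplied much of that mean: without it and PA+OA replicate 1 the change was 0.33. ULK2 rose by 0.35 ± 0.13 (adjusted p = 0.041), a call lost in 6 of the 12 fits without 1 library, those of the 3 PA replicates among them, and without both libraries that stand apart (0.26, adjusted p = 0.070). RB1CC1 was lost without any PA replicate or PA+BMS replicate 3, and PIK3C3 without PA replicate 2. ATG101 fell from 32.9, 32.7 and 27.3 FPKM to 17.9, 15.6 and 13.4 FPKM (-0.95 ± 0.22, adjusted p = 0.0079) and ATG13 from 20.6, 18.2 and 17.8 FPKM to 12.8, 12.5 and 13.9 FPKM (-0.50 ± 0.13, adjusted p = 0.0095). ULK1 lay at 33.0, 31.2 and 29.5 FPKM beside 32.3, 30.8 and 31.9 FPKM (-0.02 ± 0.14, adjusted p = 0.90). With the GC and length trend removed ULK1 was called higher (0.36, adjusted p = 0.017), and PIK3C3, RB1CC1 and ULK2 were not called. With library totals set equal or with quantile normalization ULK1 was called higher too. BECN1 and ATG14 were called higher with totals equal.

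Among the conjugation genes, ATG12, ATG5 and the E2-like enzyme ATG3 rose by 0.48 ± 0.11, 0.53 ± 0.09 and 0.49 ± 0.12 (adjusted p = 0.0064, 0.0036 and 0.0089). ATG5 lay at 5.38, 5.55 and 6.27 FPKM against 3.87, 3.49 and 3.64 FPKM. ATG12 lay at 3.38, 3.29 and 3.79 FPKM against 2.21, 2.32 and 2.11 FPKM, and ATG3 at 7.93, 7.77 and 9.17 FPKM against 5.75, 5.58 and 5.46 FPKM. All 3 were clear of the PA libraries, whereas the E1-like ATG7 (3.99, 3.88 and 3.64 against 4.94, 4.90 and 4.86 FPKM, -0.29 ± 0.11, adjusted p = 0.045) and ATG16L1 (7.39, 7.37 and 6.12 against 8.01, 8.87 and 9.36 FPKM, -0.29 ± 0.10, adjusted p = 0.029) were lower. ATG16L1 was lost without PA replicate 2 or 3 or PA+BMS replicate 3, and without both libraries that stand apart (-0.22, adjusted p = 0.053), and ATG7 in 10 of the 12 fits without 1 library. GABARAP fell from 4.12, 6.63 and 5.32 FPKM to 2.59, 2.68 and 2.07 FPKM (-0.87 ± 0.22, adjusted p = 0.010). The membrane proteins ATG2A, WIPI2 and ATG9A fell by 0.58 ± 0.16, 0.57 ± 0.14 and 0.56 ± 0.16 on the log2 scale (adjusted p = 0.014, 0.0088 and 0.014), and in each the groups did not overlap. ATG9A was lost without PA replicate 1.

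The receptors TAX1BP1 and NBR1 were higher, and SQSTM1 was not called. TAX1BP1 had 7.49, 7.62 and 14.1 FPKM against 5.31, 4.49 and 5.32 FPKM (0.78 ± 0.19, adjusted p = 0.0083), with replicate 3 well above the others and a change of 0.51 without both libraries that stand apart. NBR1 had 11.1, 11.7 and 15.5 FPKM against 8.53, 6.50 and 8.23 FPKM (0.65 ± 0.15, adjusted p = 0.0077). SQSTM1 lay at 320, 304 and 242 FPKM, below each PA library, with a difference of -0.34 ± 0.16 (adjusted p = 0.094). The direction for SQSTM1 depended on the setting. It was called higher under quantile normalization, but lower with precision weights or without PA+OA replicate 1. Taking out the trend over GC content and gene length left a change of -0.02 (adjusted p = 0.89). TFEB was at 1.22, 1.18 and 1.16 FPKM against 2.01, 2.08 and 1.70 FPKM (-0.42 ± 0.13, adjusted p = 0.022), below every library of the other 3 groups. Its call was lost without PA replicate 1, PA replicate 2 or PA+BMS replicate 3. TFE3 and FLCN were not called (-0.22 ± 0.14 and -0.13 ± 0.12).

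Against untreated cells, SQSTM1, MAP1LC3B and WIPI1 were above control in palmitate with oleate, and 8 members differed from it in palmitate with BMS-309403. These 2 comparisons share the control libraries with the first. In PA+OA against control, 13 of 39 members were higher (33.3%, beside 17.5% of all tested genes) and 6 lower (15.4%, beside 18.8%). For PA+BMS against control, 5 were higher (12.8%, beside 4.77%) and 3 lower (7.69%, beside 6.25%). With library totals equal the splits were 9 and 8, and 5 and 1, the latter also with quantile normalization. Of these calls, 10 of 19 and 1 of 8 held in all 12 fits without 1 library. In PA+OA against control the lower calls went down to 2 without control replicate 2 or 3, to 3 without PA+OA replicate 1, and to 4 without PA replicate 3, and the higher calls to 8 without control replicate 2. The higher calls in PA+BMS against control went down to 0 without control replicate 3, where 7 members were lost, and they were 1 or 2 without any of control replicates 1 and 2, the 3 PA replicates, PA+OA replicate 2 and the 3 PA+BMS replicates. At that 0, limma had 7 higher at an unadjusted p under 0.05. Lower calls there went down to 1 without control replicate 1 or 3, PA replicate 2 or any PA+BMS replicate.

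SQSTM1 with oleate and palmitate exceeded control by 1.28 ± 0.16 (adjusted p = 1.6e-04) and MAP1LC3B by 1.10 ± 0.15 (adjusted p = 2.9e-04). The means were 196 and 482 FPKM for SQSTM1 and 18.4 and 41.3 FPKM for MAP1LC3B. WIPI1 had 4.21, 3.94 and 4.92 FPKM against 2.25, 2.18 and 1.92 FPKM (0.78 ± 0.12, adjusted p = 5.5e-04). The kinase complex was higher in ATG101 (1.01 ± 0.22), ULK1 (0.63 ± 0.14) and ATG13 (0.61 ± 0.13), and ULK1 reached 44.8, 33.9 and 34.8 FPKM. ATG14, which targets the PI3-kinase to the site of formation, was lower at 3.49, 4.47 and 4.86 FPKM against 7.07, 6.26 and 7.06 FPKM (-0.57 ± 0.14, adjusted p = 0.0074), and ULK2 was lower by a mean of 1.14 against 1.79 FPKM (adjusted p = 0.039). TFE3 had 66.6, 51.1 and 50.7 FPKM against 42.6, 34.0 and 36.3 FPKM (0.56 ± 0.14, adjusted p = 0.0095), and FLCN was 0.48 ± 0.12 higher (adjusted p = 0.0094). ATG16L1 was lower by -0.75 ± 0.10 (adjusted p = 2.6e-04), with every PA+OA library under every control library. The remaining higher calls were ATP6V0D1 (0.64), ATG2A (0.55), GABARAPL1 (0.53), MCOLN1 (0.52) and ATG7 (0.37), and the remaining lower ones ATP6V1A (-0.63), LAMP2 (-0.58) and CTSL (-0.35). MCOLN1 overlapped the control libraries. Without both libraries that stand apart, neither it (0.31) nor ULK2 (-0.28) was called, and ATP6V0D1 (0.41), ATG2A (0.34) and LAMP2 (-0.36) were called with smaller changes.

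With BMS-309403 and palmitate, ATG16L1 was below control at 7.39, 7.37 and 6.12 FPKM against 10.1, 10.5 and 9.80 FPKM (-0.49 ± 0.10, adjusted p = 0.011). UVRAG was above it (0.47 ± 0.11, adjusted p = 0.018), as were WIPI1 (0.44 ± 0.12, adjusted p = 0.034), FLCN (0.42 ± 0.12, adjusted p = 0.040), ATG12 (0.36 ± 0.11, adjusted p = 0.049) and SQSTM1 (0.55 ± 0.16, adjusted p = 0.049). TFEB (-0.47 ± 0.13, adjusted p = 0.041) and CTSL (-0.45 ± 0.12, adjusted p = 0.031) were below it, CTSL at a mean of 75.9 against 104 FPKM. ATP6V1A, called down with palmitate, had 12.7 ± 1.49 FPKM here and 11.7 ± 1.37 in control (SD, n = 3; 0.11 ± 0.18, adjusted p = 0.74), and LAMP2 20.5 ± 2.80 and 17.1 ± 1.80 (0.24 ± 0.17, adjusted p = 0.40). MAP1LC3B missed the threshold (0.43 ± 0.15, adjusted p = 0.091) and passed it without both libraries that stand apart (0.51, adjusted p = 0.0041), as did ULK1 (0.41, adjusted p = 0.032). In the fit of all 12 libraries, 34 of the 39 members were called in at least 1 of the 5 comparisons. BECN1, OPTN, LIPA, ATP6V1H and GABARAPL2 were called in none, but each was called under at least 1 alternative setting. The share of all tested genes called in any comparison is not given here.

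In 3 comparisons the direction of the members' changes went with the base composition of their transcripts. In PA against control, 12 of 12 members called higher had a GC content (49.4% to 64.0%) above the median of all tested genes (49.2%), and 5 of 5 called lower were below it (37.7% to 44.9%). In PA+BMS against PA, 0 of the 11 higher calls were above that median and 14 of the 15 lower ones were. Of the calls in PA+OA against control, 12 of the 13 higher were above it and 5 of the 6 lower below. Across the 39 members, Spearman's rank correlation of GC content with the log2 change was 0.84, -0.80 and 0.68 in these 3 comparisons, as against 0.67, -0.72 and 0.47 over all 11856 tested genes, values across genes in the same libraries and not independent replicates. With each library's trend over GC content and gene length removed, PA against control had 5 higher calls (SQSTM1, ATG101, ATG13, ATG7 and FLCN) and 3 lower (ATP6V1A, NBR1 and TFEB). LAMP1, LAMP2, MCOLN1, ATP6V0D1, ATG2A, ATG9A, WIPI1, WIPI2, PIK3C3 and ATG5 no longer passed there. The same step in PA+BMS against PA left 7 higher and 10 lower, 14 of them shared with the 26, and the losses were ATG12, ATG3, ATG5, PIK3C3, RB1CC1, ULK2, ATG2A, ATG7, ATG9A, ATP6V0D1, MCOLN1 and TFEB. The 3 cathepsins, LAMP1, LAMP2, ATP6V1A, UVRAG, NBR1, TAX1BP1, GABARAP, ATG101 and ATG13 stayed past the threshold. In PA+OA against PA all 5 calls were kept and SQSTM1, ULK1, TFE3, WIPI1 and ATG14 were added, so 7 were higher and 3 lower. Whether base composition, through library making or through the cells, has a part in the changes was not tested.

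**Figure D5:**
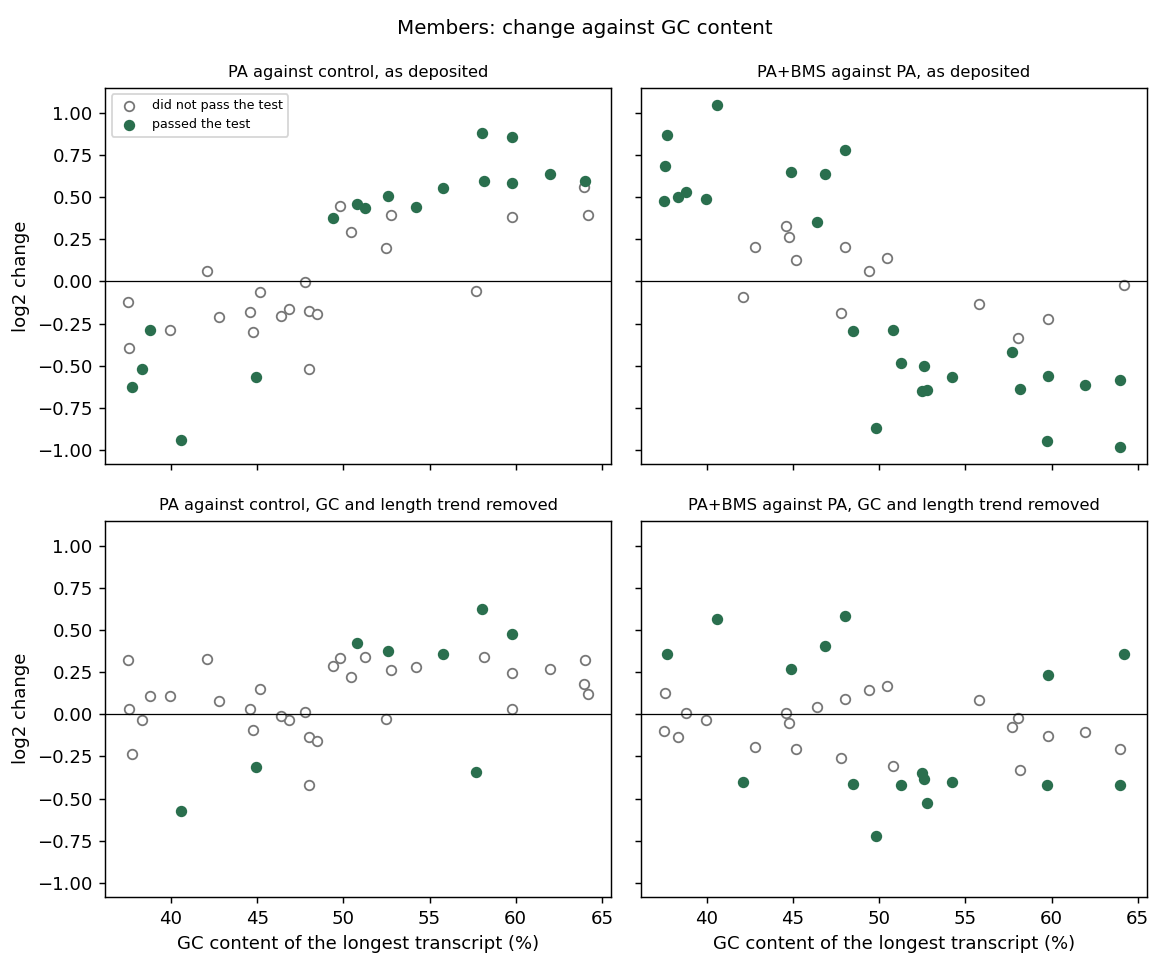
Log2 change of each member against the GC content of its longest transcript, for PA against control and PA+BMS against PA, as deposited (top) and with each library's GC and length trend removed (bottom). Filled points passed the test; they number 17 and 26 at the top and 8 and 17 at the bottom.

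Of the other genes of these pathways, 122 were listed, 121 had a row and 106 were tested. Higher and lower calls were 18 and 15 of 106 in PA against control (17.0% and 14.2%, beside 12.8% and 14.8% of all tested genes), 3 and 2 for PA+OA over PA (2.83% and 1.89%, beside 4.01% and 3.91%) and 31 and 34 for PA+BMS over PA (29.2% and 32.1%, beside 25.2% and 29.4%). They were 18 and 18 in PA+OA against control (17.0% each, beside 17.5% and 18.8%) and 9 and 2 in PA+BMS against control (8.49% and 1.89%, beside 4.77% and 6.25%). Of 33 other lysosomal hydrolases and membrane proteins, 7 were higher and 0 lower with palmitate (21.2% and 0%, median log2 change 0.29), and 3 were higher and 13 lower with BMS-309403 added to it (9.09% and 39.4%, median -0.29). The shares of all tested genes were 12.8% and 14.8%, and 25.2% and 29.4%, in those comparisons, with medians of 0.028 and -0.04. Of 12 other receptors, 1 was higher and 5 lower under palmitate (8.33% and 41.7%), and 6 were higher and 3 lower with BMS-309403 added (50.0% and 25.0%). Of 23 other autophagy machinery genes, 7 were higher and 1 lower under palmitate (30.4% and 4.35%). With BMS-309403 added, 9 were higher and 6 lower (39.1% and 26.1%). The 14 other proton pump subunits gave 2 and 5 (14.3% and 35.7%), then 4 and 5 (28.6% and 35.7%). The 24 other genes of TFEB family and mTORC1 control gave 1 and 4 (4.17% and 16.7%), then 9 and 7 (37.5% and 29.2%). NCOA4, which delivers ferritin to the autophagosome, went from 50.6 ± 6.21 FPKM in control to 25.0 ± 5.63 in PA (SD, n = 3; -1.01, adjusted p = 0.0058) and stood at 50.3 ± 11 in PA+BMS (0.98 above PA, adjusted p = 0.0045).

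Palmitate also lowered MITF, the third member of the TFEB family in this list (6.12 ± 0.33 to 3.08 ± 0.08 FPKM, -0.80, adjusted p = 0.0097), the AMPK catalytic gene PRKAA1 (-0.80, adjusted p = 0.0087) and the ER receptor SEC62 (-0.79, adjusted p = 0.013). With oleate added, NRBF2, a PI3-kinase complex subunit, rose by 0.57 (adjusted p = 0.019) and RPTOR, the mTORC1 scaffold, fell by 0.60 (adjusted p = 0.0099), from 14.2 ± 0.89 to 9.12 ± 1.11 FPKM. RPTOR was also below control with BMS-309403, at 8.17 ± 1.09 against 16.2 ± 1.33 FPKM (-0.91, adjusted p = 6.3e-04). ZFYVE1, a marker of the membrane from which autophagosomes form, was 2.08 ± 0.33 FPKM in control, 4.69 ± 0.18 in PA+OA (0.89, adjusted p = 6.3e-05) and 4.52 ± 0.11 in PA+BMS (0.85, adjusted p = 3.1e-04). FOXO3, a transcription factor of autophagy genes, stood 0.87 above control with BMS-309403 (adjusted p = 0.024) and ZKSCAN3, a repressor of them, 0.55 above it (adjusted p = 0.015). When BMS-309403 was added to palmitate, the pump subunit ATP6V0C fell by 1.05 on the log2 scale (adjusted p = 0.015), the PI3-phosphate reader WDR45 by 0.98 (adjusted p = 0.0038) and the mitochondrial receptor FKBP8 by 0.94 (adjusted p = 0.0091). Values of these other genes, NCOA4 included, are from the fit of all 12 libraries only. Over all tested genes, calls in PA against control fell from 3272 to 798 without control replicate 2, and to 1912 with the GC and length trend removed. In PA+BMS against PA they fell from 6463 to 3698 without PA replicate 2, and to 2686 with that trend removed.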

How the data were processed

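RNA of 12 libraries of HepaRG cells was poly(A)-selected and sequenced as 150 bp pairs, per the labels. The authors deposited FPKM per gene; the tools in the submitters' processing notes are featureCounts 1.5.0-p3, HISAT2 2.0.5 and CASAVA, and no source used here gives the build, annotation or strand setting. All 58735 gene identifiers, symbols and coordinates equalled GENCODE 29 on GRCh38. FPKM times gene length fell in whole steps in each library (100% of values, tolerance 0.001), which gave the recovered reads.

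From the deposited FPKM, log2(FPKM + 1) of 11856 genes was fitted with limma 3.58.1 in R 4.3.3: 4 group coefficients, 12 libraries, residual degrees of freedom of 8, a trended eBayes prior, two-sided tests, Benjamini-Hochberg within each of 5 comparisons at 0.05. Changes on this scale understate those of low genes. A p-value from this fit is given as adjusted over all genes tested. The trend with GC content and gene length was removed with natural splines of 5 degrees of freedom. The procedure was tested on simulated reads with the same spread setting for all genes and libraries. They held no libraries that stand apart and no GC trend tied to a group, so that test does not cover these features of the data. The other alternatives concerned the values (pseudocount 0.1, no filter, or a 5 FPKM filter), the scaling (median of ratios, equal totals, quantiles) and the model (a fit of the 2 groups alone, precision weights, a block for replicate number, robust eBayes, limma voom on recovered reads), besides leaving out libraries.

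The members and lists were chosen with earlier results of these data known. All 39 members are named; of the other pathway genes, up to 4 called genes with the largest change per comparison are, and some of their values in other comparisons are given beside them. No 2 libraries of a group agreed within sampling noise (chi-square per gene 3.94 to 87.8). The loci of 32 members overlap those of other genes, and for 18 the other gene reached 1 FPKM, such as MGAT4B at SQSTM1, FBXO31 at MAP1LC3B, PNPLA6 at MCOLN1 and IFIT1 at LIPA, so shared reads are uncertain. Gene positions are from GENCODE 29 and promoter windows from RefSeq. Figures were drawn with matplotlib 3.10.9.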

Additional observations from a re-analysis of the deposited data

How the results depend on the processing

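Results rest on 3 libraries a group, and on a spread pooled over groups of unequal noise. Counts of called members, higher and lower, are given below where they moved by over 1.5 times. In PA against control (12 and 5) they were 4 and 1 with no filter, 6 and 10 with library totals equal, 19 and 10 with precision weights (whose fit stopped before it converged), 5 and 3 after removal of the GC and length trend, 19 and 9 without the 2 libraries that stand apart (replicate 1 of PA+OA, replicate 3 of PA+BMS), and 9 lower with only the 2 groups. In PA+OA against PA (3 and 2) they were 1 higher with no filter, 0 higher and 1 lower with only the 2 groups compared (limma; 5 and 3 at an unadjusted p under 0.05), 13 and 9 with precision weights, 7 higher with the trend removed, and 6 and 6 without both libraries. In PA+BMS against PA (11 and 15) they were 6 higher at 5 FPKM, 17 and 3 with totals equal and 7 higher with the trend removed. In PA+OA against control (13 and 6) they were 8 and 3 with only the 2 groups and 3 lower with no filter. In PA+BMS against control (5 and 3), higher calls were 1 with no filter, 1 at 5 FPKM, 2 with only the 2 groups, 9 with precision weights and 3 with robust eBayes, and lower calls 1 with totals equal and 1 with quantile normalization. Totals set equal moved the median of all tested genes from 0.028 to -0.18 in PA against control and from -0.04 to 0.24 in PA+BMS against PA, so its splits are relative to those shifts. Pseudocount 0.1, median-of-ratios scaling and voom moved no count by over 1.5 times. Leaving out 1 library gave 2 to 17 higher and 1 to 8 lower in PA against control, 1 to 4 and 1 to 3 in PA+OA against PA, 8 to 13 and 10 to 16 in PA+BMS against PA, 8 to 14 and 2 to 7 in PA+OA against control, and 0 to 7 and 1 to 3 in PA+BMS against control.

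Values past the threshold in the result or the alternative that changed sign were, with the trend removed, ATG5 in PA against control (0.11), ATG12 (-0.10), ATG3 (-0.033), PIK3C3 (-0.13), TFE3 (0.24, adjusted p = 0.036) and ULK1 (0.36, adjusted p = 0.017) in PA+BMS against PA, and NBR1 in PA+OA against control (0.29, adjusted p = 0.016). In PA+BMS against PA, totals equal gave ATG16L1 0.042, ATG7 0.021 and ULK1 0.35, and quantile normalization LAMP1 0.0024, SQSTM1 0.28 and ULK1 0.31.

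Nothing in the labels ties libraries of the same number together, and the numbers did not meet the rule for pairing, a correlation over 0.1 in every same-numbered pair. Their deviations correlated between -0.28 and 0.56 (median 0.11, against -0.09 between other numbers), over 0.1 in 9 of 18 pairs, and 9 of 12 libraries correlated best with their own number, a hint from the data only. With the replicate number as a block, calls in PA against control were 15 higher and 8 lower, with ULK1 (adjusted p = 0.018), TFE3 (0.017), TAX1BP1 (0.028), CTSD (0.039), OPTN (0.044) and ATG3 (0.049) added, and in the other 4 comparisons no count moved by over 1.5 times.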
